A study of Mus musculus with 4 samples.

Results

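The small leucine-rich proteoglycans are secreted proteins of the extracellular matrix, and 10 genes of the family were followed in the embryonic mouse skull vault. The 10 members, Bgn, Dcn, Aspn, Fmod, Lum, Prelp, Kera, Omd, Epyc and Ogn, were taken by symbol from a table of 55487 genes, and each symbol matched 1 row. All 10 passed the filter on low counts, as did 20947 genes in all. Poly(A) RNA came from the calvaria of Mus musculus embryos at stage E14.5. Frontal bone gave 2 libraries, and parietal with interparietal bone, mixed in each library, gave 2 more, which are called posterior in the text and parietal-interparietal in the plots. The libraries held 24069177 to 35555013 counts. No genotype, strain, sex, treatment or number of embryos is given for either group. The labels do not tie replicates to different embryos, and p-values therefore measure the spread between these samples alone, which may be technical. The comparison asks how the matrix genes of the frontal bone differ from those of the bones behind it.

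Each protein of the family has a core of leucine-rich repeats, most bind collagen fibrils and limit their width, and several bind growth factors such as transforming growth factor beta. Class I holds biglycan (Bgn), decorin (Dcn) and asporin (Aspn), of which biglycan and decorin carry chondroitin or dermatan sulfate chains. Class II holds fibromodulin (Fmod), lumican (Lum), PRELP, keratocan (Kera) and osteomodulin (Omd), most of which can carry keratan sulfate. Class III holds epiphycan (Epyc) and osteoglycin (Ogn). Biglycan is abundant in bone, and mice without it have low bone mass.

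Bgn, Fmod and Kera were lower in the frontal libraries, and no member was called higher. In GRCm38, Bgn (ENSMUSG00000031375) lies on chromosome X from 73483602 to 73495933, Fmod (ENSMUSG00000041559) on chromosome 1 from 134037254 to 134048277 and Kera (ENSMUSG00000019932) on chromosome 10 from 97606879 to 97613692, all on the plus strand. Of the 10 members, 8 had an entry in the RefSeq promoter table (GRCm38.p6), all but Dcn and Lum. The 250 bases before the RefSeq start are shown for Bgn (chrX:73483351-73483600) and Fmod (chr1:134037004-134037253), 2 of the genes that were lower. The listed window of Kera lies within its annotated exon and is not shown. Capitals mark matches on either strand to any of 5 motifs: the GC box, the TATA box, the RUNX core, the AP-1 motif and an E-box.
Bgn: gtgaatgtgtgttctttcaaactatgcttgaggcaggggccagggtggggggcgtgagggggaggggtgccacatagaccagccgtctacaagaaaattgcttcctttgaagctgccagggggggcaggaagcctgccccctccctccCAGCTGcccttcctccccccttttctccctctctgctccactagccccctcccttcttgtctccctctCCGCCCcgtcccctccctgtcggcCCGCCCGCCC
Fmod: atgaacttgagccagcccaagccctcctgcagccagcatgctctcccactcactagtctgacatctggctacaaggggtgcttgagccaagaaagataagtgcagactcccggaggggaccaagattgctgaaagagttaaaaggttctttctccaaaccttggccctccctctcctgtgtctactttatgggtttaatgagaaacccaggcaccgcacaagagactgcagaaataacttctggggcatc
The Bgn window held 3 GC boxes, of which the last 2 overlap, and 1 E-box, with a GC content of 64.4%. None of the 5 motifs was found in the Fmod window, whose GC content was 51.2%. The GC box searched was GGGCGG, held by 33.0% of 32536 promoter windows of this length. The TATA box was read as TATAAA and found in 12.3% of them. For the RUNX core the letters were TGTGGT, found in 13.96%. AP-1 was searched as TGANTCA, with a share of 6.73%. The E-box was CAGCTG, in 13.1% of windows, and the median GC content of all windows was 52.4%. The windows of Aspn and Ogn each held 2 TATA box matches, of which those of Ogn overlap, 1 on each strand. That of Ogn also held 1 RUNX core and 1 E-box. A match describes the letters of the window and shows no binding.

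Bgn had the highest count of the family in every library. It was at 365 and 390 CPM in frontal libraries 1 and 2, and at 521 and 519 CPM in posterior libraries 1 and 2 (CPM, edgeR's count per library size, with sizes scaled by TMM, a trimmed mean of ratios between libraries). Both frontal libraries were below both others. The difference was 1.38-fold (log2 fold change, frontal minus posterior, −0.46 ± 0.07 SE, n = 2 each, edgeR quasi-likelihood adjusted p = 0.00267). The call was lost without posterior library 1 (adjusted p = 0.0911), without library 2 (0.0795) and when the posterior pair was summed (0.0928). Bgn is X-linked, and Xist, the RNA of the inactive X chromosome, was at 399 to 474 CPM and the Y-linked Ddx3y at 28.2 to 35.6 CPM over the 4 libraries, so transcripts of both kinds were found in each library. Neither gene was called (adjusted p = 0.134 and 0.483).

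The other class I genes did not pass the test. Dcn, which shapes collagen fibrils and binds transforming growth factor beta, was at 263 and 256 CPM in the frontal libraries and at 249 and 257 CPM in the posterior libraries. The groups overlapped, and the log2 fold change was 0.04 ± 0.07 (edgeR adjusted p = 0.802). With no scaling beyond the total count its sign turned, at −0.01. Aspn, which binds collagen and can restrain growth factor signals, was at 19.1 and 24.9 against 21.9 and 23.1 CPM, the frontal values lying outside the other 2 on both sides (log2 fold change −0.03 ± 0.14, adjusted p = 0.920). In each library, counts of Bgn per 100 counts of Dcn were 139 and 152 in frontal and 209 and 202 in posterior libraries. A ratio of counts within a library needs no scaling between libraries. The smallest two-sided p that an exact permutation test over 4 libraries can give is 0.333, so no such ratio was tested.

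**Figure D1:**
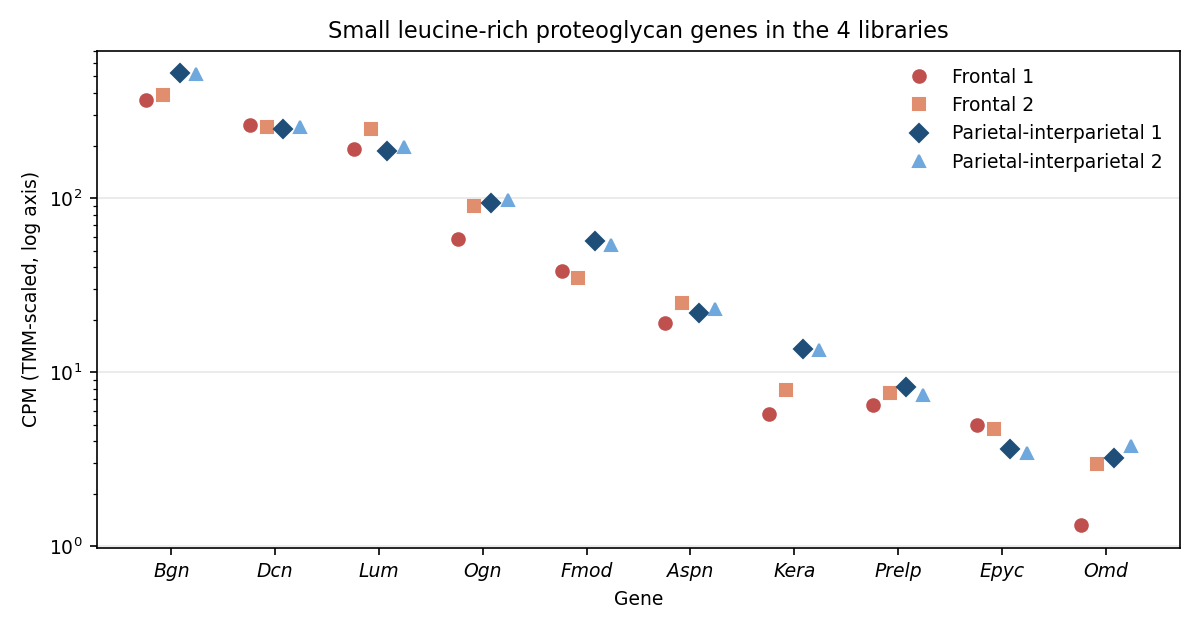
Level of each of the 10 genes in each library, as TMM-scaled CPM on a log axis, 1 point per library, ordered by the posterior mean. The frontal points of Bgn, Fmod and Kera lie below both posterior points, and those of Dcn, Lum, Aspn and Prelp overlap with them.

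Class II held the other 2 differences. Fmod, a collagen-binding proteoglycan abundant in tendon, was at 38.1 and 34.7 CPM in the frontal and at 56.4 and 54.1 CPM in the posterior libraries. The groups did not overlap, and the difference was 1.52-fold (log2 fold change −0.60 ± 0.10 SE, n = 2 each, edgeR adjusted p = 0.00357). The call was lost without posterior library 1 (adjusted p = 0.0617) and with the pair summed (0.0553), and was kept without library 2 (0.0392).

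Kera, best known from the corneal stroma, had the largest change among the called members. It was at 5.74 and 7.89 CPM in the frontal and at 13.5 and 13.4 CPM in the posterior libraries, from 165, 278, 331 and 365 counts. The frontal values were well below both others, 1.97-fold on average (log2 fold change −0.98 ± 0.19 SE, n = 2 each, edgeR adjusted p = 0.00754). It was called in every alternative run, with adjusted p-values up to 0.0330. Its size depended on the frontal library kept: the log2 fold change was −0.77 without frontal library 1 and −1.24 without frontal library 2. Krt12, the keratin of the corneal epithelium, had 0 and 8 counts in the frontal and 8 and 16 in the posterior libraries, at most 0.590 CPM. Aldh3a1, an enzyme of the cornea, had 4 and 0 against 10 and 6 counts, at most 0.409 CPM. Krt12 and Aldh3a1 had too few counts to pass the filter, so no direction was read from them. Foxe3, a factor of the lens, had 0 counts in all 4 libraries. Of the 12 eye markers 7 were tested, and 1 of them, Cryab, was lower and 0 higher. Summed levels were 83.3 and 74.9 against 124 and 127 CPM, of which Cryab alone made up 59.2 and 50.2 against 104 and 103 CPM. The median log2 fold change of the 7 tested markers was 0.21, on the higher side. The part of eye tissue in the difference of Kera was not tested.

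Lum, a regulator of fibril spacing, was at 191 and 250 CPM in the frontal libraries and at 187 and 196 CPM in the posterior libraries. Frontal library 2 stood above the other 3, which lay together, and Lum was not called (log2 fold change 0.20 ± 0.11, edgeR adjusted p = 0.290). Without frontal library 1 it was called higher, at 0.39 (adjusted p = 6.89e-18), and without frontal library 2 its sign turned, at −0.02 (adjusted p = 0.833). Such a fit takes its spread from the pair left whole and assumes that the lone library varies like it.

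Omd, a proteoglycan of mineralizing bone, was low, at 1.32 and 2.95 CPM in the frontal and 3.23 and 3.76 CPM in the posterior libraries, from 38 to 104 counts. The groups did not overlap, but the frontal libraries differed by 1.90-fold on the scale of CPM + 0.5, and the log2 fold change of −0.70 ± 0.39 did not pass the test (edgeR adjusted p = 0.287). Without frontal library 2 Omd was called lower, at −1.41 (adjusted p = 0.00194), and without frontal library 1 its log2 fold change was −0.24. Prelp, which binds collagen and heparan sulfate, was at 6.47 and 7.58 against 8.22 and 7.37 CPM, with overlapping groups (−0.15 ± 0.19, adjusted p = 0.680). It shares 350 exonic bases with Gm15851, an antisense gene with at most 2 counts, and the strand setting of the counting is not given in the sources used here, so reads of the pair cannot be told apart.

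The class III genes were not called. Ogn, a proteoglycan of bone and connective tissue, was at 58.4 and 90.0 CPM in the frontal and at 93.2 and 97.0 CPM in the posterior libraries. Both frontal values were lower, but frontal library 2 lay close to the other group, and the log2 fold change of −0.36 ± 0.16 had an edgeR adjusted p = 0.185. It was called lower without frontal library 2, at −0.71 (adjusted p = 1.05e-24), and its log2 fold change was −0.08 without frontal library 1. With no filter on low counts it was also called lower (adjusted p = 0.00672). Epyc, a proteoglycan of growth cartilage, was at 5.01 and 4.74 against 3.60 and 3.43 CPM. It was the only member with both frontal libraries above both others, and it did not pass the test (0.47 ± 0.24, adjusted p = 0.250). Epyc shares 1041 exonic bases with the antisense long noncoding RNA Gm10754, which had 2 to 9 counts, so its value is uncertain where the counting ignored strand.

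**Figure D2:**
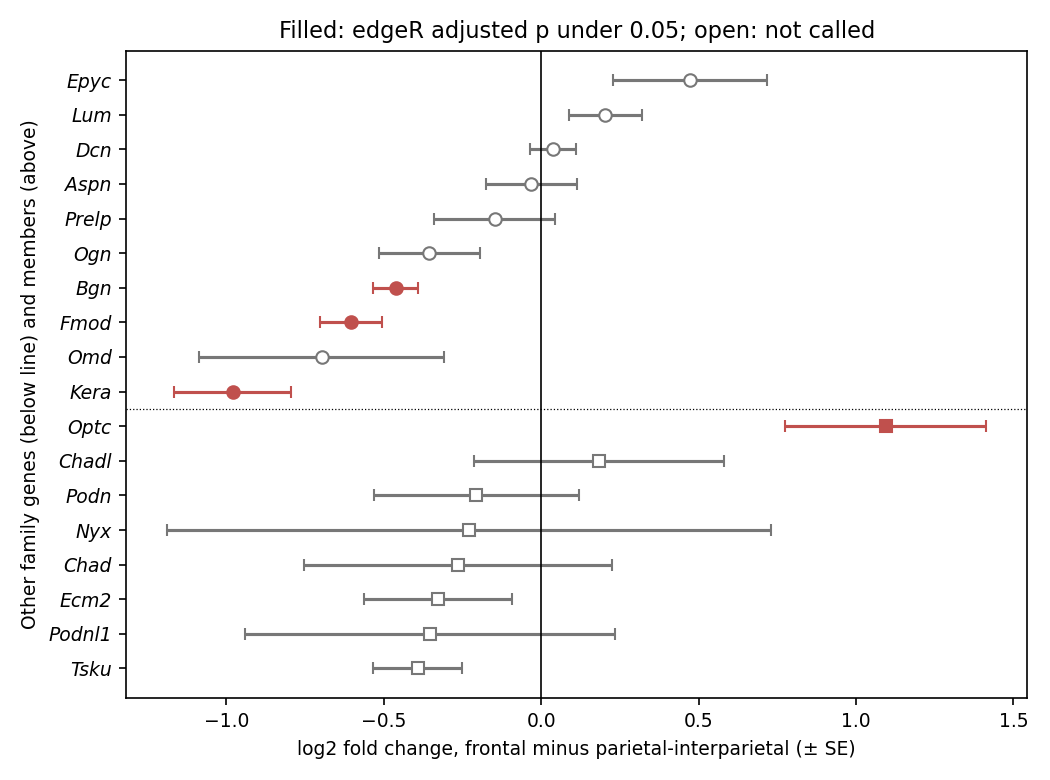
log2 fold change with its SE for the 10 members (circles) and 8 other genes of the family (squares), filled where the edgeR adjusted p was under 0.05. Kera, Fmod and Bgn are the filled members, all on the lower side, and Optc is the filled gene on the higher side.

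Counted over the family, 3 of 10 members were called lower, beside 6.44% of all genes tested, and 0 of 10 higher, beside 6.25%. Calls in either direction covered 12.7% of genes and 3 of the 10 members. At an unadjusted p under 0.05 no member was higher in edgeR either, and DESeq2 called the same 3 lower and 0 higher. Groups did not overlap with the frontal libraries lower for 5 members, beside 28.4% of genes, and with the frontal libraries higher for 1 member, beside 28.9%. The median log2 fold change was −0.25 over the members and 0.01 over all genes tested. No test was made of the list. The number called lower became 3 or 5 when the first or second frontal library was dropped, 1 or 2 when the first or second posterior library was dropped, and 1 with the posterior pair summed. Without frontal library 1 the median was −0.06. These are bulk samples, in which fewer cells of a type and less RNA per cell cannot be told apart.

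The 2 frontal libraries differed by over 1.2-fold for 5 of 10 members, beside 42.0% of all genes tested, and the posterior libraries for 0 of 10, beside 27.1%. On the scale of CPM + 0.5, frontal library 2 was 1.90-fold above library 1 for Omd, 1.54-fold for Ogn, 1.35-fold for Kera, 1.31-fold for Lum and 1.30-fold for Aspn. These 5 lay between the 85.3 and 97.9 percentile of all genes tested. Bgn, Dcn, Fmod and Epyc had ratios of 1.07, 0.972, 0.912 and 0.952, and Prelp one of 1.16. Between the posterior libraries, the CPM of library 2 over that of library 1 lay between 0.896 for Prelp and 1.16 for Omd. The principal transcripts of the 5 genes have a GC content of 34.3% to 41.9%, and those of Bgn, Fmod and Prelp 52.5% to 53.8%. Dcn and Epyc, at 42.8% and 36.5%, did not follow that order. Over all genes the log2 ratio of frontal library 2 to 1 had a median of 0.15 in the eighth of genes with the lowest GC content and −0.14 in the eighth with the highest, against 0.0075 and −0.0026 for the posterior pair. With offsets that remove the GC trend from each library, an alternative chosen after seeing the data, Bgn, Fmod and Kera were called as before, and Ogn was called lower as well (−0.39, adjusted p = 0.0472).

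**Figure D3:**
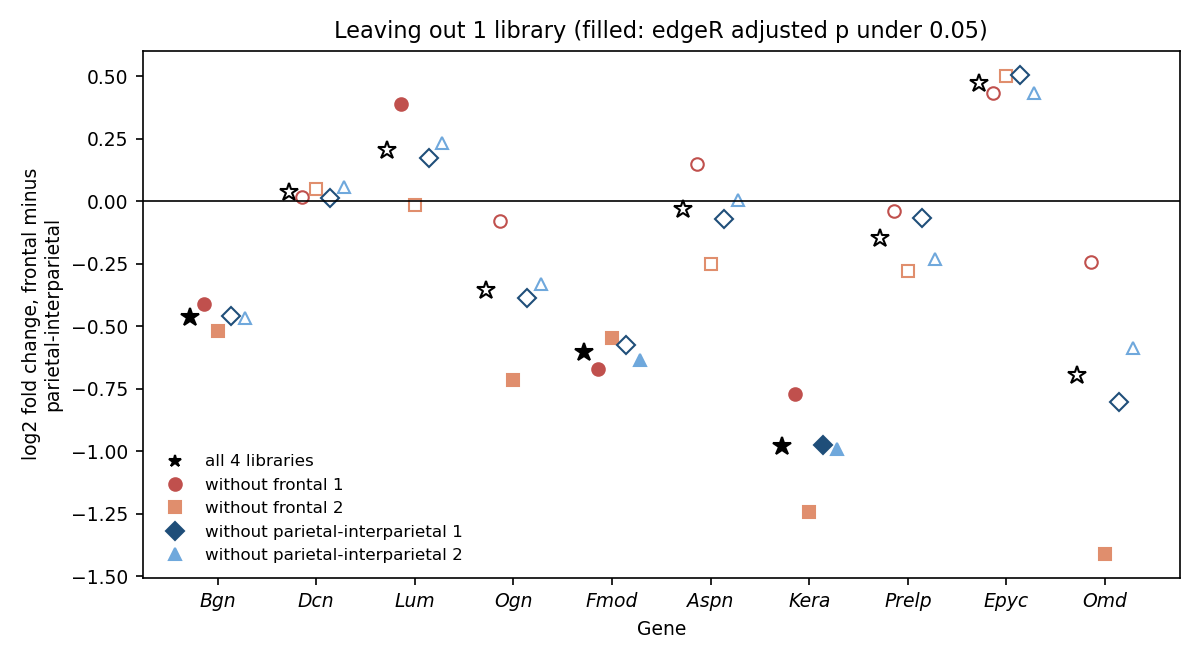
log2 fold change of each member with all 4 libraries (star) and with 1 library left out, filled where the edgeR adjusted p was under 0.05. Bgn stays between −0.41 and −0.52 and Fmod between −0.55 and −0.67, whereas Omd runs from −0.24 to −1.41 and Ogn from −0.08 to −0.71 according to which frontal library is kept.

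Levels of different genes were compared per length, as CPM per kilobase of the principal transcript. In the frontal libraries Bgn was at 156 ± 7.41, Dcn at 148 ± 2.92, Lum at 90.1 ± 17.2 and Ogn at 28.9 ± 8.73 CPM per kilobase (mean ± SD, n = 2). In the posterior libraries the same genes were at 215 ± 0.676, 144 ± 3.32, 78.2 ± 2.39 and 37.1 ± 1.05 CPM per kilobase. Fmod (11.7 and 17.7), Aspn (9.44 and 9.66), Kera (2.99 and 5.92) and Prelp (1.94 and 2.16) followed in this order in both groups. The order of the last 2 was Epyc (1.92 ± 0.0737) above Omd (0.95 ± 0.513) in frontal and Omd (1.55 ± 0.165) above Epyc (1.38 ± 0.0484) in posterior libraries, and the means of that posterior pair lay within their summed SDs. In frontal libraries the neighbours Bgn and Dcn, Fmod and Aspn, and Prelp and Epyc also lay within their summed SDs. The order of the top 3 depends on the length used: per kilobase of all annotated exons Lum came first in frontal libraries, at 90.1 against 61.9 for Bgn and 44.5 for Dcn, because the exons annotated for Bgn and Dcn sum to 6099 and 5838 bases and their principal transcripts to 2419 and 1758.

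Summed, the 10 genes took a share of 0.0926% of the first frontal library (Wilson bounds at 95%, 0.0915 and 0.0937) and 0.106% of the second (bounds 0.105 and 0.107). The posterior shares were 0.118% (bounds 0.116 and 0.119) and 0.120% (bounds 0.118 and 0.121). Intervals cover counting error only. Within these counts Bgn made up 37.4% ± 1.27 in frontal and 44.6% ± 0.582 in posterior libraries (mean ± SD, n = 2). Lum made up 21.7% ± 2.40 and 16.4% ± 0.339, and Dcn 25.8% ± 2.61 and 21.7% ± 0.285. The libraries of the groups did not overlap in these 3 shares, and the exact permutation p was 0.333 for each, the smallest that 4 libraries allow. Shares of a fixed total are not independent, so a lower share of Bgn goes with higher shares of other genes. In CPM, Dcn and Lum overlapped between the groups.

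**Figure D4:**
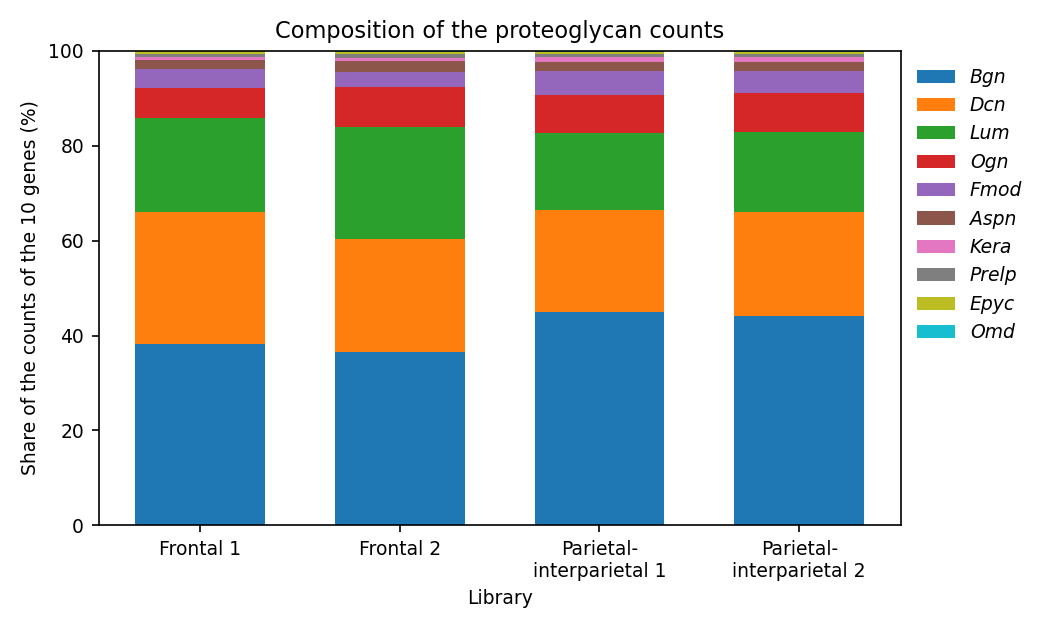
Share of each gene in the summed counts of the 10 genes, in percent, 1 bar per library. The Bgn part is 37.4% on average in the frontal bars and 44.6% in the posterior bars, and the Lum part is 21.7% and 16.4%.

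Collagens are the main binding partners of the family. Of 15 chains of fibrils, fibril-associated collagens and collagen VI, 7 were called lower, 0 higher and 8 not (median log2 fold change −0.30). Col1a1, the main chain of bone collagen, was at 994 and 967 CPM in the frontal and 1490 and 1503 CPM in the posterior libraries (log2 fold change −0.61 ± 0.06, edgeR adjusted p = 0.000315). Counts of the members were also set against those of Col1a1 in the same library, a ratio chosen after values were seen. Because Col1a1 was itself 1.53-fold lower in frontal libraries, a gene at the same CPM in both groups gets a ratio of means near 1.53. Fmod had 3.83 and 3.59 counts per 100 of Col1a1 in frontal and 3.78 and 3.60 in posterior libraries, with overlapping groups. Dcn had 26.5 and 26.5 against 16.7 and 17.1, a ratio of means of 1.57, and Epyc 0.504 and 0.491 against 0.242 and 0.228, a ratio of 2.12. Bgn had 36.7 and 40.4 against 35.0 and 34.5, a ratio of 1.11. Kera was the only member below in both frontal libraries, at 0.577 and 0.817 against 0.909 and 0.895. Counts of collagen calls with 1 library left out, in the order frontal 1, frontal 2, posterior 1 and 2, were 14, 10, 3 and 3 lower and 0, 1, 0 and 0 higher.

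**Figure D5:**
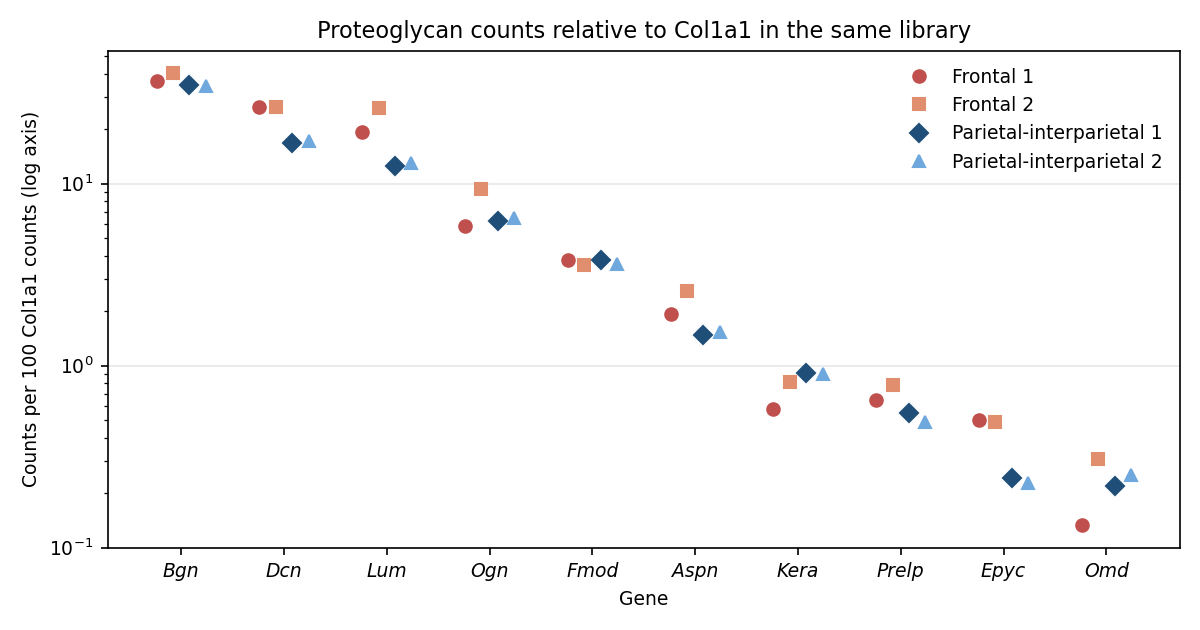
Counts of each member per 100 counts of Col1a1 in the same library, on a log axis, 1 point per library. The points of Fmod overlap between groups, those of Bgn, Dcn, Lum, Aspn, Prelp and Epyc are higher in both frontal libraries, and those of Kera are lower. Col1a1 itself was lower in the frontal libraries, which raises every ratio there.

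Among 8 other genes of the family, 1 was called higher and 0 lower, with a median log2 fold change of −0.25. Without frontal library 2 there were 0 higher and 2 lower, with a median of −0.0026, and without posterior library 2 the median was −0.045. The higher gene was Optc, which encodes opticin, a protein of the vitreous of the eye, and which lies next to Prelp and Fmod on chromosome 1 (133897199 to 133907999, minus strand). It was at 3.23 and 4.12 against 1.64 and 1.81 CPM (log2 fold change 1.09 ± 0.32, edgeR adjusted p = 0.0495). The call was lost without frontal library 2, without either posterior library, with that pair summed, in DESeq2 and with no scaling beyond the total count, with adjusted p-values from 0.0575 to 0.275. Tsku, a secreted modulator of growth factor signals, was at 27.9 and 38.6 against 44.9 and 42.6 CPM and was not called (adjusted p = 0.103). Nyx and Podnl1 were under 1 CPM in both groups.

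The 10 members lie in 3 clusters, apart from Bgn, which lies alone. On chromosome 10, Dcn (97479609 to 97518143), Lum (97565128 to 97572703), Kera and Epyc (97644068 to 97682454) stand in this order within 203 kilobases on the plus strand, and their log2 fold changes were 0.04, 0.20, −0.98 and 0.47. Counts of Kera per 100 of Lum were 3.01 and 3.15 in frontal and 7.23 and 6.88 in posterior libraries, and per 100 of Epyc 115 and 166 against 376 and 392. On chromosome 13, Ecm2, Aspn (49544443 to 49567565), Omd (49582462 to 49592822) and Ogn (49608046 to 49624501) lie within 120 kilobases and had values of −0.33, −0.03, −0.70 and −0.36, none of them called. The gene Cenpp spans Aspn, Omd and Ogn on the opposite strand but shares only 7 exonic bases with Aspn and 0 with the others. On chromosome 1, Optc, Prelp (133910304 to 133921414, minus strand) and Fmod lie within 151 kilobases and had values of 1.09, −0.15 and −0.60.

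Enzymes that build the sugar chains were mostly not called. Of 26 tested genes of the linker and of chondroitin or dermatan sulfate, 1 was lower, 0 higher and 25 not called (median log2 fold change −0.07). The lower gene was Chst15, a sulfotransferase of chondroitin sulfate, at 36.2 and 32.1 against 52.7 and 57.0 CPM (log2 fold change −0.69 ± 0.10, edgeR adjusted p = 0.00233). Of 10 tested keratan sulfate genes 2 were lower and 0 higher, the sulfotransferase Chst2 (−0.53 ± 0.08, adjusted p = 0.00244) and the sialyltransferase St3gal1 (−0.40 ± 0.11, adjusted p = 0.0356). Dropping either posterior library ended the call of St3gal1, and dropping the second ended that of Chst2. With 1 library left out in the same order as for the collagens, 4, 4, 1 and 1 of the chondroitin list and 3, 3, 1 and 0 of the keratan list were lower. Without frontal library 2, 2 genes of each list were higher, and none without any other library.

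Of 13 tested proteases and helpers that act on the family or on its collagen partners, 3 were lower and 0 higher, with a median log2 fold change of −0.17. They were Adamts9 (−0.54 ± 0.09), Adamts5 (−0.48 ± 0.11) and Pcolce, the enhancer of procollagen C-proteinase (−0.39 ± 0.08). All 3 calls were lost without either posterior library, 5 genes were lower without either frontal library, and 3 were higher without frontal library 2. Of 21 tested growth factors and receptors known to bind or answer to members, 9 were lower and 1 higher (median −0.36). The higher gene was Tgfbr1, a transforming growth factor beta receptor, at 0.47 ± 0.10 (edgeR adjusted p = 0.0116). Tgfbr3, a transforming growth factor beta co-receptor, fell by 0.77 on the log2 scale, Ccn4, a matricellular protein that can bind decorin and biglycan, by 0.76, Mstn, which encodes myostatin, by 1.19 and Egfr, a receptor that decorin can bind, by 0.50. The number lower was 12, 10, 4 and 3 and the number higher 2, 2, 0 and 0 with 1 library left out in the same order, and Egfr lost its call without either posterior library.

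Markers of other tissues moved in the same libraries. Of the osteoblast list, 2 of 13 were higher and 0 lower, with Dmp1 and Bglap under 1 CPM in both groups. Summed levels were 1907 and 2024 CPM in frontal and 1885 and 1836 CPM in posterior libraries. Most of that was Sparc, at 1211 and 1274 against 1201 and 1164 CPM and not called. The log2 fold changes of the list ran from −0.34 to 1.09, with a median of 0.41. Ibsp, a bone matrix phosphoprotein, was higher (log2 fold change 1.09 ± 0.10, edgeR adjusted p = 0.000118) and kept its call without either posterior library, where 1 gene of the list was called higher. Without frontal library 1 or 2, 6 or 5 genes were higher and 1 was lower. Fibroblasts and meninges also express genes of the family. Of 12 dermal and loose connective tissue markers 7 were lower and 1 higher (799 and 857 against 1075 and 1065 CPM summed), and of 14 meningeal markers 7 were lower and 1 higher (1018 and 996 against 1294 and 1261 CPM). Of 8 tendon markers 4 were lower and 0 higher (221 and 241 against 290 and 299 CPM), among them Scx, the tendon factor, at −0.54 ± 0.14 (edgeR adjusted p = 0.0339). Cartilage markers went both ways, with 2 of 14 higher and 4 lower (611 and 602 against 731 and 702 CPM). Skeletal muscle markers were lower in 11 of 14 and higher in 0 (2060 and 1935 against 2671 and 2643 CPM). With 1 library left out, in the order frontal 1, frontal 2, posterior 1 and 2, the lower counts were 9, 9, 2 and 3 for the fibroblast, 10, 11, 5 and 5 for the meningeal, 5, 6, 1 and 0 for the tendon, 4, 5, 1 and 1 for the cartilage and 14, 13, 3 and 4 for the muscle list. The fibroblast and meningeal lists each had 1 higher gene without a frontal and 0 without a posterior library.

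Neuronal markers were higher in 7 of 16 and lower in 2 (1310 and 1279 against 1104 and 1107 CPM). These sums hide a wide range, as log2 fold changes of single neuronal markers ran from −0.93 to 6.06, with a median of 0.28. All 7 of 7 tested inner ear markers were lower (73.2 and 69.7 against 156 and 152 CPM), with log2 fold changes from −0.55 to −4.41 and a median of −2.35. Of 10 epidermal markers 2 were lower and 0 higher, of 12 vascular markers 2 and 1, of 10 macrophage markers 1 and 0, and of 10 red cell markers 7 and 0. With 1 library left out in the same order, the numbers lower were 5, 4, 0 and 1 for the epidermal, 6, 4, 1 and 1 for the vascular, 4, 4, 0 and 0 for the macrophage and 10, 10, 4 and 4 for the red cell list. Neuronal markers then numbered 8, 10, 5 and 5 higher, and inner ear markers 7, 7, 6 and 6 lower. Calls the other way also occurred in these runs, higher for the epidermal, vascular and macrophage lists and lower for the neuronal list. A locus that matches ribosomal RNA, CT010467.1, took 9.86% and 8.03% of frontal counts, against 6.07% and 5.97% of posterior counts. Mitochondrial ribosomal RNA took 0.939% and 1.12% against 0.564% and 0.567%. The calls of Bgn, Fmod and Kera were kept with ribosomal, mitochondrial and globin genes left out. The part of these cell types in the differences of Bgn, Fmod and Kera was not tested.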

How the data were processed

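RNA-seq of 4 libraries was analysed. The authors deposited raw counts, 1 whole number per gene and library. The submitters' processing notes name the build GRCm38 and the tools featureCounts 2.0.1, HISAT2 2.1.0 and Trim Galore 0.6.7, and their settings and the strand setting are not given in the labels. Totals were 24069177 to 35555013 counts per library.

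Symbols, positions, transcript lengths and GC content came from GENCODE M21 for GRCm38, which matched 55227 gene IDs. After filterByExpr (minimum count 10) and TMM scaling, 20947 genes were tested two-sided by the quasi-likelihood test of edgeR 4.0.16 (R 4.3.3) on group alone. Adjustment was by Benjamini-Hochberg across these genes, with calls at an adjusted p under 0.05. SE is the absolute log2 fold change over the root of F. The procedure was tested on simulated data. Alternatives were DESeq2 1.42.0, other scalings and filters, halved counts, left-out libraries and a replicate block. The members and the gene lists were chosen with earlier results of these data known. Ratios between genes and the GC offsets were added after values were seen. Named genes are the members, other family genes, genomic neighbours, 11 set genes and, per list, up to 4 genes with the smallest p. Aldh3a1, Foxe3, Dmp1, Bglap, Sparc, Cenpp, Gm15851 and Gm10754 lie outside that rule and were named after their values were seen. A gene that the rule takes is not reported here.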

Additional observations from a re-analysis of the deposited data

How the results depend on the processing

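Calls over all genes numbered 1309 higher and 1348 lower (49.3% of calls higher), against 984 and 1606 (38.0%) without scaling beyond total counts. With the posterior pair summed, 379 genes were higher, 412 lower, and 1 member was lower. With 1 library left out, 423 to 3483 genes were higher and 442 to 3796 lower, 0 to 1 members were higher and 1 to 5 lower, and the median log2 fold change of the members was −0.399 to −0.0579. The labels do not say whether replicate numbers pair the libraries. Deviations of same-numbered libraries from their group means correlated at 0.0206, which cannot settle it with 2 libraries per group. A replicate block gave 1602 genes higher, 1704 lower, and 4 members lower, Ogn being the added one. Without scaling, the log2 fold change of Dcn was −0.0149. With 1 library left out, signs turned within −0.25 to 0.15 for Aspn, −0.0154 to 0.39 for Lum, −1.39 to 0.66 for Nyx, −0.75 to 0.0998 for Chad, −0.14 to 0.58 for Chadl, −0.48 to 0.14 for Podn, −0.21 to 7.06 for Cryba1 (a posterior library at 0 counts, so the upper value depends on the prior count), −0.0606 to 0.29 for Kdm5d, −0.52 to 0.0782 for Uty and −0.0206 to 0.45 for Atp2b3. Per kilobase of principal transcript the mean shares of Bgn were 34.6% in frontal and 41.9% in posterior libraries, those of Dcn 32.8% and 28.1%, and that of Lum 15.3% in posterior libraries. These shares differ from those of the counts because the counts were divided by transcript length, 2419 bases for Bgn and 1758 for Dcn. The cause of the other shifts was not tested. Bgn, Fmod and Kera stayed called lower with DESeq2, its size factors, halved counts, no filter, GC offsets, and ribosomal, mitochondrial and globin genes left out.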
